A study of Gallus gallus with 4 samples.

Results

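The genes described here encode small leucine-rich proteoglycans and matricellular proteins, a set of 10 chosen by name: DCN, LUM, KERA, FMOD, OGN, TNC, POSTN, FBLN1, SPARC and THBS2. Probes were assigned through the RefSeq accession printed with each probe. This gave 27 probes for 9 of the 10 genes, out of 5294 named genes on the array, and THBS2, an anti-angiogenic thrombospondin, had no probe by this match. Of the 27 probes, 18 were well above background on all 4 arrays, so that each of the 9 genes was measured by at least 1 probe.

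Small leucine-rich proteoglycans are secreted proteins that bind collagen fibrils and control their width and spacing. Many carry chondroitin, dermatan or keratan sulfate chains. Matricellular proteins sit in the matrix without being its main scaffold and alter how cells adhere, migrate and respond to growth factors. In the eye both groups are known from cornea, sclera and the connective tissue of the choroid, and matrix remodelling is a known part of eye elongation in myopia.

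Retina and the underlying choroid of Gallus gallus chicks of unstated strain were excised together and measured as 4 pools. In each chick the right eye wore a glass goggle, a treatment that induces myopia, from day 6 after hatching, and the left eye was its uncovered control. Goggles were worn for 7 days with light on for 12 hours a day, under normal light or with violet light added, and eyes were collected on day 13. Each pool held RNA of 4 eyes (16 eyes of 8 chicks in all), so the 4 groups were uncovered normal light, uncovered violet light, covered normal light and covered violet light, each read on 1 array of a single slide. Both eyes of a chick lie in the 2 pools of one light, while the lights separate different chicks.

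The labels of 2 arrays are in dispute. Across probes, the authors' deposited table column labelled uncovered normal light correlated best with the scanner file labelled covered violet light (0.99921), and its covered violet-light column with the scanner file labelled uncovered normal light (0.99974). The other 2 columns matched their own scanner files (0.99962 and 0.9995). Pools are named below by the scanner files' labels unless the value table's labels are stated. The uncovered normal-light array also stood apart in correlation with the other arrays (0.9773 to 0.9878, against 0.9896 to 0.9943 among the other arrays). With 1 array per group there is no replicate, no p-value and no error between animals, and nothing below was tested. The number of arrays limits precision, and spot error alone gave an SD of 0.09 for a log2 difference between 2 arrays. That SD comes from 43 repeatedly printed probes well above background on every array, so it need not hold for dim probes. In these bulk pools, fewer cells of a type and less RNA per cell cannot be told apart.

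Levels are given as log2 of the scanner's processed signal after subtraction of each array's 75th percentile. They compare arrays for one probe and do not rank genes against each other. Where a gene had several passing probes, the one with the highest mean signal stands for the gene, and the others are given beside it. A difference of at least 1 on the log2 scale, which is 2-fold, is counted.

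Decorin (DCN) binds collagen and growth factors and carries a chondroitin or dermatan sulfate chain. Its brighter probe read 0.83 and -0.44 in uncovered eyes under normal and violet light, and 0.36 and -0.86 in covered eyes under normal and violet light. Both normal-light pools lay above both violet-light pools. The second probe read -2.92, -3.36, -2.96 and -4.04 in the same order of pools, with the same pools on either side. Its light difference in uncovered eyes was -0.45, against -1.27 by the brighter probe, whereas in covered eyes the 2 probes gave -1.08 and -1.21.

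Lumican (LUM), a keratan sulfate proteoglycan of the corneal stroma, read -4.88, -5.91, -4.64 and -6.06 in the same order. It too was higher in both normal-light pools than in both violet-light pools. This is a dim probe, with processed signals of 71.4, 22.0, 31.9 and 13.2. Of the other 2 LUM probes, 1 was not well above background on any array and 1 was so on both uncovered arrays alone. The latter read -6.73 under normal and -6.58 under violet light there. Its light difference in uncovered eyes was 0.15, so it did not share the lower level under violet light. Against the covered arrays it gave no fold that could be bounded.

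Keratocan (KERA) is the keratan sulfate proteoglycan best known from corneal keratocytes. Its 3 probes did not give one answer. The brightest read -3.43, -3.14, -2.80 and -2.79 and was higher in both covered pools. The second read -3.17, -3.54, -3.79 and -3.70, lowest in the covered pools, and the third stayed between -4.80 and -4.61. Goggle differences under normal light were thus 0.63, -0.62 and -0.17 by probe, so the direction for KERA depends on the probe.

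Fibromodulin (FMOD) helps assemble collagen fibrils and carries keratan sulfate. It read 0.72, 0.04, 0.31 and 0.13 by its brighter probe and -1.30, -1.95, -2.02 and -2.28 by the second. Both probes were highest in the uncovered normal-light pool, and no pair of arrays differed 2-fold by either probe.

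Osteoglycin (OGN), also called mimecan, regulates collagen fibril growth. Its passing probe read -4.76 and -4.93 in the uncovered pools under normal and violet light, and -2.74 and -4.03 in the covered pools under normal and violet light. The 2 covered pools lay above both uncovered pools. A second probe was well above background in the covered pools alone. By this probe OGN was nominally at least 6.35-fold higher in covered than uncovered eyes under normal light and at least 1.58-fold higher under violet light. Detected only where OGN was higher, the probe is not separate support. Such bounds are nominal, since a probe not well above background can read above the lowest detected signal.

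Among the matricellular proteins, tenascin C (TNC) modulates cell adhesion and is made in embryonic, healing and remodelling tissue and in the retina. Its brightest probe read -2.44, -1.39, 0.32 and -0.58 in the order uncovered normal, uncovered violet, covered normal and covered violet light. Both covered pools were above both uncovered pools, and the uncovered normal-light pool was lowest. The other 3 passing probes also put the uncovered normal-light pool lowest and the covered normal-light pool highest, with ranges over the arrays of 1.39, 2.04 and 2.51 against 2.76 for the brightest.

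Periostin (POSTN), which binds collagen I and tenascin C in load-bearing connective tissue, read -4.26, -4.91, -2.21 and -4.09. The covered normal-light pool stood alone at the top. Of 5 POSTN probes, 1 passed and 4 were too dim on at least 1 array. In the covered normal-light pool, 3 of these 4 were well above background. They put POSTN nominally at least 13.6-fold, at least 6.93-fold and at least 1.65-fold above the uncovered violet-light pool, where none of the 3 was. The first of these is the ratio to the dim reading itself. Being detected in the pool where POSTN was highest, these probes are not separate support. The passing probe gave 6.49-fold for the same pair.

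Fibulin 1 (FBLN1), a calcium-binding protein of basement membranes and elastic fibres, varied least. It read -2.41, -2.82, -2.50 and -2.94, with the normal-light pools above the violet-light pools by less than 2-fold. SPARC, a collagen chaperone and counter-adhesive protein also called osteonectin, read 0.74, 0.36, 1.12 and 0.16 by its brightest probe. All 3 SPARC probes were highest in the covered normal-light pool. The other 2 lay between -0.73 and -0.64 in the remaining pools and reached 0.12 and 0.15 there.

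**Figure D1:**
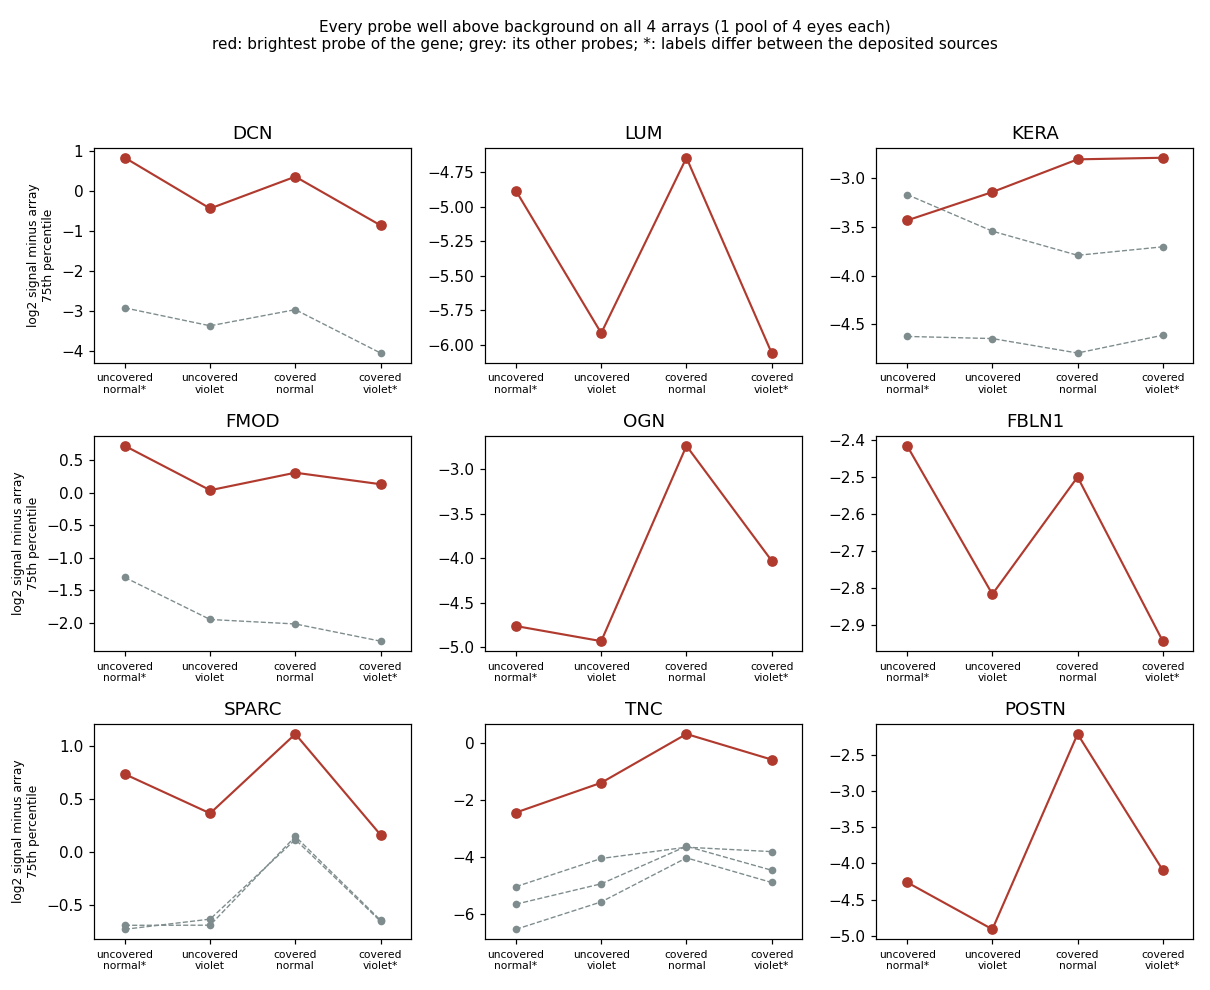
Log2 signal minus the array's 75th percentile (vertical axis) on the 4 arrays (horizontal axis) for the 18 probes well above background on all arrays, 1 panel per gene; red is the brightest probe, grey the others, and each point is 1 pool with no error bar. DCN and LUM are higher in both normal-light pools, OGN and TNC in both covered pools, and the 3 KERA probes disagree.

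Over the 4 arrays, 5 of the 9 genes were highest in the covered normal-light pool, 3 in the uncovered normal-light pool and 1, KERA, in the covered violet-light pool, while 0 peaked under violet light in uncovered eyes. Of all 4807 named genes that passed, 23.7%, 36.2%, 27.9% and 12.2% peaked in these pools in that order. TNC, POSTN and OGN spanned 2.76, 2.70 and 2.20 on the log2 scale, more than 99.3%, 99.2% and 98.9% of genes. FBLN1, with a range of 0.53, exceeded 68.9%.

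The pair of arrays with undisputed labels is covered normal light against uncovered violet light, which differ in both goggle and light. By the probe that stands for each gene, 9 of 9 were higher in the covered normal-light pool, with a median of 0.79, where 54.5% of all 4807 genes were higher and their median was 0.03. At least 2-fold higher were 4 of the 9 (POSTN 2.70, OGN 2.20, TNC 1.71 and LUM 1.27), against 2.50% of all genes, and 0 were 2-fold lower, against 0.686%. DCN differed by 0.79, SPARC by 0.75, KERA by 0.34, FBLN1 by 0.32 and FMOD by 0.27. After normexp correction, which adds an offset of 50 to each signal, LUM fell short of 2-fold (0.83), with OGN at 1.39 and POSTN at 1.87. An offset of that size weighs on dim probes such as these. With the mean of a gene's probes, KERA became -0.02 and 8 of 9 were higher. The other KERA probes gave -0.25 and -0.15, and the second FMOD probe -0.07. Over all probes, the median difference was 0.18 in the dimmest of 4 equal groups by mean signal and -0.03 in the brightest. The passing OGN, POSTN and LUM probes lie in the dimmest group. This pair was singled out after the data were seen.

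The remaining pair holds both disputed arrays, so its direction turns with the label set. By the scanner labels it is covered violet light minus uncovered normal light. TNC was higher by 1.86, the 1 member at least 2-fold higher, against 3.62% of all genes. DCN (-1.69) and LUM (-1.17) were at least 2-fold lower, against 2.43%. LUM became 0.30 after normexp correction. OGN lay at 0.73 and POSTN at 0.17, while the second OGN probe, dim in the uncovered normal-light pool, gave nominally at least 2.20-fold higher. With quantile scaling OGN was at 0.37 and POSTN at -0.20. Dim probes as a whole ran higher in the covered violet-light pool here. The median difference was 0.37 in the dimmest of 4 equal groups of probes by mean signal, which holds the passing OGN and POSTN probes, and 0.003 in the brightest.

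Covered against uncovered eyes under normal light gave 3 genes at least 2-fold higher (TNC 2.76, POSTN 2.05 and OGN 2.03), against 4.70% of all genes, and 0 lower, against 1.41%. The median of the 9 was 0.38, and that of all genes 0.02. The other members lay between -0.47 for DCN and 0.63 for KERA. In this pair dim probes as a whole ran higher in covered eyes. The median difference was 0.40 in the dimmest of 4 equal groups of probes by mean signal and -0.03 in the brightest. The OGN and POSTN probes are in the dimmest group, as are 3 of the 4 TNC probes, while the brightest TNC probe is in the third. The settings tried on these 2 arrays include the mean of probes and the authors' value table. Across them OGN ranged from 1.61 to 2.03, POSTN from 1.65 to 2.05 and TNC from 2.17 to 2.76.

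Under violet light the same 3 genes were higher in covered eyes by less than 2-fold by the probe that stands for each, with OGN at 0.90, POSTN at 0.82 and TNC at 0.82. However, 2 POSTN probes that were dim in the uncovered violet-light pool put it nominally at least 2.34-fold and at least 3.27-fold higher in covered eyes. By the representative probes, no member reached 2-fold in either direction, against 1.08% of all genes (0.395% higher and 0.686% lower), and the median was 0.09. DCN was at -0.42 and LUM at -0.14.

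The value table's labels turn both comparisons into other pairs of arrays. Under them, covered minus uncovered eyes under normal light is covered normal light minus covered violet light by the scanner labels. There 4 genes were at least 2-fold higher in covered eyes (POSTN 1.88, LUM 1.41, OGN 1.29 and DCN 1.21), against 2.27% of all genes. Under violet light the table's labels gave DCN 1.27 and LUM 1.03 higher in covered eyes, against 1.69% of all genes, and TNC -1.05, against 1.23% on that side. The LUM probe well above background on these 2 arrays alone did not share the LUM difference. DCN and LUM thus reached 2-fold in both lights, as did 0.811% of all genes (0.0208% on the lower side), while by the scanner labels no member did so for goggles, against 0.333% in each direction.

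Violet against normal light in uncovered eyes gave 2 genes at least 2-fold lower (DCN -1.27 and LUM -1.03), against 1.69% of all genes, and 1 higher (TNC 1.05), against 1.23%. Of the 9 genes, 7 were lower, with a median of -0.40 against -0.01 for all genes, of which 48.6% were higher. In covered eyes 8 of 9 were lower, with a median of -0.95 against 0.02 for all genes, of which 58.0% were higher. There 4 reached 2-fold lower (POSTN -1.88, LUM -1.41, OGN -1.29 and DCN -1.21), against 2.27% of all genes, and 0 were 2-fold higher, against 0.0832%. SPARC at -0.95 and TNC at -0.90 lay just inside 2-fold. TNC in uncovered eyes was at 2-fold by its brightest probe alone. Its other probes gave 0.72 to 0.99, and the gene was at 0.87 to 0.99 with quantile, cyclic loess or median scaling, normexp correction or the mean of probes. The mean of probes put DCN at -0.86 in uncovered eyes. After normexp correction LUM was at -0.08 in uncovered and -0.46 in covered eyes, and in covered eyes OGN was at -0.82 and POSTN at -1.24. The offset in that correction weighs on these dim probes too. The LUM probe well above background on the uncovered arrays alone gave 0.15 in uncovered eyes.

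By the value table's labels, violet against normal light compares other pairs again. In uncovered eyes it gave 0 of 9 members at 2-fold, with OGN at -0.90, POSTN and TNC at -0.82 and DCN at 0.42, against 1.08% of all genes. In covered eyes it gave TNC -2.76, POSTN -2.05 and OGN -2.03, against 4.70% of all genes on that side, and DCN 0.47. By the probes that stand for them, DCN and LUM were lower by 2-fold or more under violet light in each eye by the scanner labels. So were 0.811% of all genes (0.0208% were higher in each eye). By the table's labels no member was, against 0.333% in each direction. The 4 comparisons share arrays, so they are not independent of each other.

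**Figure D2:**
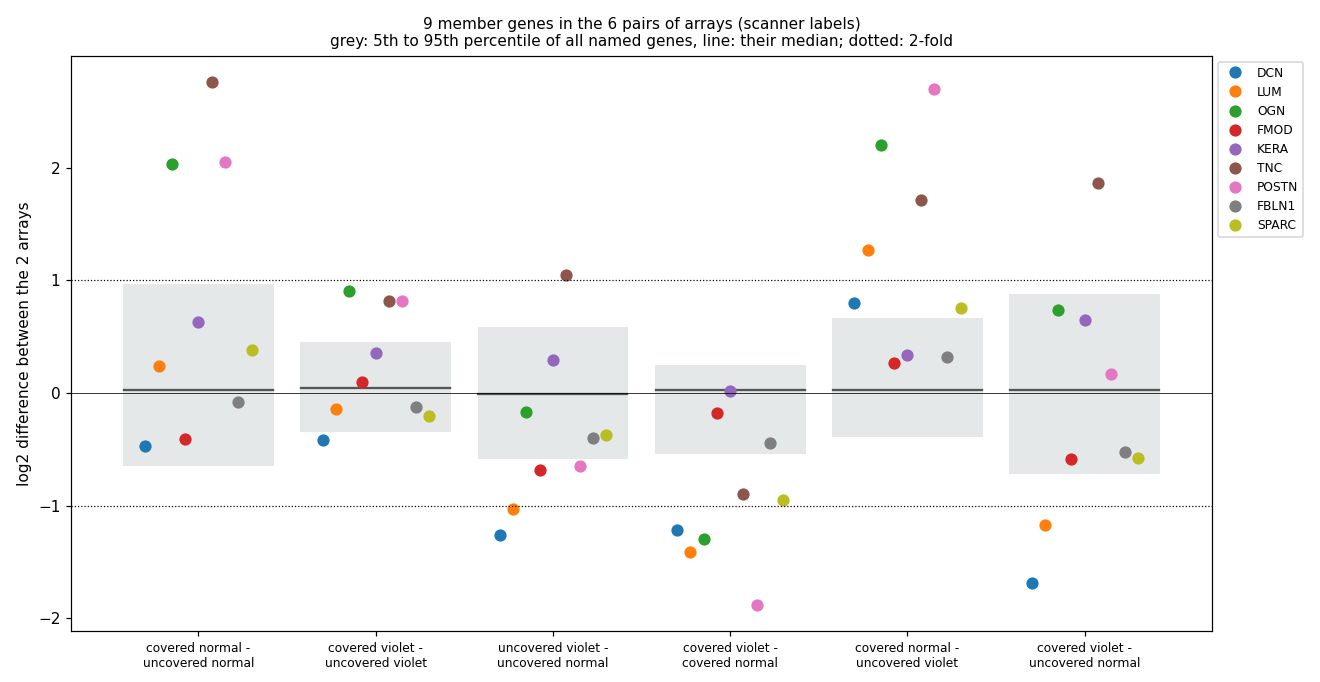
Log2 difference between 2 arrays (vertical axis) for the 9 genes in each of the 6 pairs of pools, named by the scanner labels (horizontal axis), with the 5th to 95th percentile of all 4807 named genes in grey and 2-fold as dotted lines. All 9 genes lie above 0 for covered normal minus uncovered violet light, the pair with undisputed labels, and 8 of 9 lie below 0 for covered violet minus covered normal light. Of all genes, 54.5% lie above 0 in the first of these pairs and 58.0% in the second.

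The difference of the goggle differences between the lights has the same value under both label sets. It was -1.95 for TNC, -1.23 for POSTN and -1.12 for OGN, so the signed goggle difference was higher under normal light for all 3. Its size need not be: by the value table's labels TNC was at 0.90 under normal and -1.05 under violet light. These 3 of 9 genes reached 1 in size on the negative side, as did 2.48% of all genes. The 4 TNC probes gave -1.15 to -1.95. A POSTN probe outside the 18 did not share this, with 1.89 under normal light and a nominal bound of at least 1.71 on the log2 scale under violet light. That probe was left out for being dim in the uncovered violet-light pool, on which the bound rests, so little can be read from it. The second OGN probe gave -0.22, but it was dim in both uncovered pools, so little can be read from it either. Across settings TNC ranged from -1.95 to -1.62, POSTN from -1.23 to -0.99 and OGN from -1.12 to -0.86. FBLN1 lay at -0.04. DCN lay at 0.05 by its brighter probe and at -0.64 by the second. No replicate allows a test of it.

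By the probe that stands for each, neighbouring genes did not share one profile. In RefSeq's chicken assembly GRCg7b, EPYC, KERA, LUM and DCN lie next to each other in that order. The straight-line distance between the 4 levels of 2 genes, each centred on its own mean, was 0.54 for DCN and LUM, 1.45 for LUM and KERA and 1.69 for DCN and KERA. The KERA distances use its brightest probe alone, and its 3 probes disagree. The closest members were FMOD and FBLN1 (0.28), and the farthest DCN and TNC (2.78). OGN lies beside OMD and near ECM2, and FMOD beside PRELP. Epiphycan (EPYC), a small proteoglycan of cartilage, was measured by 1 dim probe and read -5.88, -5.26, -5.71 and -5.75 in the order uncovered normal, uncovered violet, covered normal and covered violet light. It was highest in the uncovered violet-light pool.

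Among the genes closest to the mean profile of the 9 members, by that distance over 4 arrays, were PALMD (0.07), SIX2 (0.12), TPM1 (0.15) and THRSPB (0.16). SIX2 is a homeobox transcription factor and TPM1 is a tropomyosin. With 4 points, small distances are common. The nearest gene to DCN was the fibrillar collagen COL1A2 (0.14), to LUM the transcription factor ETS1 (0.14) and to POSTN XIRP1 (0.36), an actin-binding protein of striated muscle. The nearest to OGN was ANKRD1 (0.26), a nuclear and sarcomeric protein of muscle.

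Of other matricellular proteins and fibulins, 11 of 36 listed names were measured. In the undisputed pair 4 of 11 were at least 2-fold higher in the covered normal-light pool, against 2.50% of all genes, and their median was 0.68. These were CCN3 (1.91), TGFBI (1.81), the elastic fibre protein FBLN5 (1.16) and FSTL1 (1.07), with WISP1 at 1.00 just short of 2-fold. TGFBI and FBLN5 rest on 1 probe each, and the FBLN5 probe is dim, with levels from -6.07 to -4.62. In covered eyes, violet against normal light gave 4 of 11 at least 2-fold lower, against 2.27% of all genes: CCN3 (-1.78), TGFBI (-1.60), MGP (-1.60) and FBLN5 (-1.45). Matrix Gla protein (MGP), an inhibitor of calcification, had another order of pools, with levels of 5.22, 4.28, 4.22 and 2.62. By the scanner labels, MGP was lower in covered than uncovered eyes in both lights, at -1.01 under normal and -1.66 under violet light. Of all genes, 1.41% and 0.686% were at least 2-fold lower in these pairs. Osteopontin (SPP1) was also lower in covered eyes by these labels (-1.17 and -0.91). With the value table's labels both directions turn, and MGP and SPP1 were higher in covered eyes in both lights. These are the light differences by the scanner labels with the sign turned. In covered and uncovered eyes those were -1.60 and -0.95 for MGP, but only -0.13 and -0.39 for SPP1. SPP1 rests on 1 dim probe. Tenascin R (TNR), the neural tenascin, read -4.59, -3.88, -3.61 and -3.58 by 1 dim probe, lowest in the uncovered normal-light pool as TNC was. Of all genes, 38.4% were lowest in that pool, so little is read from this likeness.

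**Figure D3:**
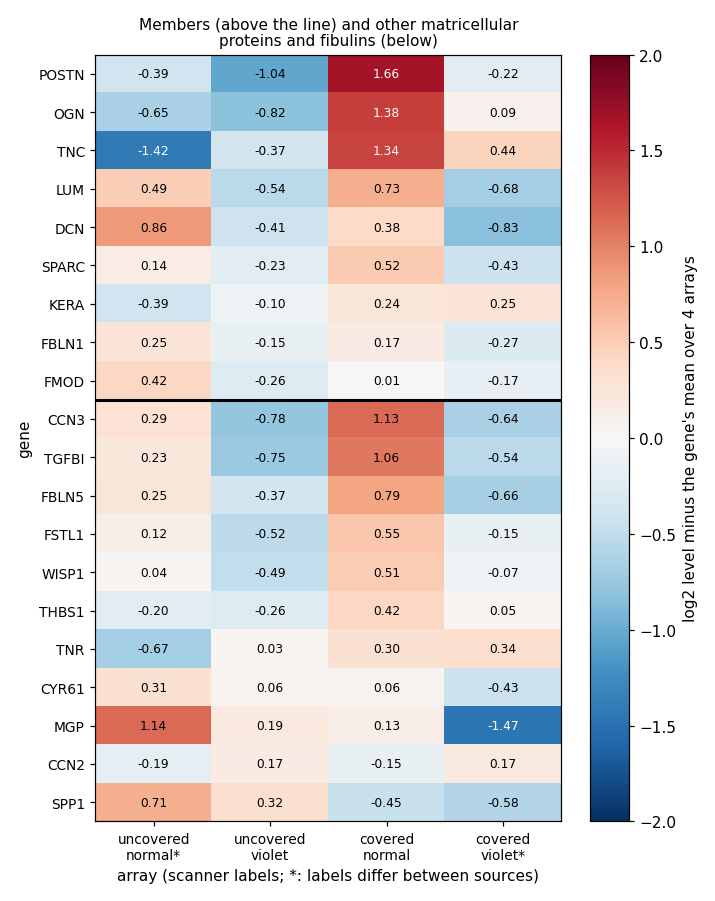
Log2 level of each gene minus its own mean over the 4 arrays (colour and printed value) for the 9 members, above the line, and 11 other matricellular proteins and fibulins, below it; rows are genes and columns are pools by the scanner labels. POSTN, OGN, TNC, CCN3 and TGFBI are highest in the covered normal-light column, and MGP and SPP1 in the uncovered normal-light column.

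Of 31 listed enzymes that build the sulfated sugar chains of proteoglycans, 7 were measured and 0 reached 2-fold in any of the 6 pairs. Since 0.0832% to 4.70% of all genes reached 2-fold in a given direction and pair, nothing is read from that count. The widest range was that of XYLT2 (0.95), then B3GNT2 (0.60) and CHST3 (0.27). Of 12 other small leucine-rich proteoglycans, EPYC and opticin (OPTC) were measured and neither reached 2-fold. Of 6 measured large proteoglycans and matrix glycoproteins, COL18A1 was 2-fold higher in the undisputed pair (1.37), against 2.50% of all genes. It was lower under violet light in covered eyes (-1.45), against 2.27%. Fibronectin (FN1) had the widest range of this list, at 0.998 in the undisputed pair and -1.54 for violet against normal light in uncovered eyes, against 1.69% of all genes. Under normal light neurocan (NCAN), a proteoglycan of neural tissue, was lower in covered eyes by the scanner labels (-1.12), against 1.41% of all genes. Among 18 measured receptors and growth factors, the integrin subunit ITGA9, part of a tenascin C receptor, differed by 1.54 in the undisputed pair, and ITGA8 by 1.02. Of all genes, 2.50% were at least 2-fold higher there. ITGA8 rests on 1 dim probe, with levels from -6.04 to -5.02. By the scanner labels, TGFBR3 and the endocytic receptor LRP1 were higher in covered eyes under normal light (1.45 and 1.43), as was ITGA9 (1.28). Of all genes, 4.70% were at least 2-fold higher in this pair, where dim probes as a whole ran higher. Each of the 3 genes rests on 1 probe. In the undisputed pair TGFBR3 was at 0.88 and LRP1 at 0.44. Of 14 matrix proteases and crosslinking enzymes only TLL1 was measured, and it did not reach 2-fold in any of the 6 pairs.

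In the undisputed pair, markers of some other cell types differed in the same direction as the members. Retinal neuron markers (12 of 20 listed were measured) had a summed signal of 341 to 398, in units of the array's 75th percentile, and medians between -0.05 and 0.09 in the 6 pairs. Mueller glia markers (5 of 8) summed to 295.2 in uncovered normal, 379.9 in uncovered violet, 427.5 in covered normal and 422.0 in covered violet light. Their sums, most of which were GLUL, had the order of pools of TNC. GLUL and RLBP1 had that order too, but the other markers of the list did not. VIM was highest in the uncovered normal-light pool, SOX2 was highest in the uncovered violet-light pool, and CA2 had a range of 0.07. The list had a median of -0.05 in the undisputed pair and 0.49 for goggles under normal light. Fibroblast markers (11 of 18) summed to 51.3, 41.7, 48.0 and 43.2 in the order uncovered normal, uncovered violet, covered normal and covered violet light. Most of each of these sums was THY1, which had a range of 0.14. The list had a median of 0.56 in the undisputed pair, and COL3A1 differed there by 1.74. For goggles under normal light by the scanner labels, its median was -0.07, with 8 of 11 below 0. The members' median there was 0.38. Endothelial markers (6 of 11) had a median of 1.11 in the undisputed pair and smooth muscle and pericyte markers (4 of 8) of 1.49. For goggles under normal light these 2 medians were -0.16 and 0.19. Striated muscle markers (11 of 17) summed to 30.6 in the covered normal-light pool and 9.50 to 11.4 in the others. Most of the sum in those other pools was ACTN2, which had a range of 0.22. Under violet light 5 of these markers were at least 2-fold higher in covered eyes by the scanner labels, against 0.395% of all genes. The list's median was 0.99 there and 3.94 in the undisputed pair. Lens markers went the other way in the undisputed pair, with a median of -1.19, and summed to 15.7 in the uncovered violet-light pool and 2.96 to 5.66 elsewhere. Blood markers (5 of 11) had a median of 0.35 and pigment epithelium and melanocyte markers (8 of 12) of 0.32, and both lists summed higher in the normal-light pools than in the violet-light pools. Of the scleral cartilage markers, MATN1 and LECT1 were not well above background on any array, while 9 of 19 were measured, with a median of 0.08 in the undisputed pair. Their median for goggles under normal light was -0.15. The part of these cell types in the members' differences was not tested.

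**Figure D4:**
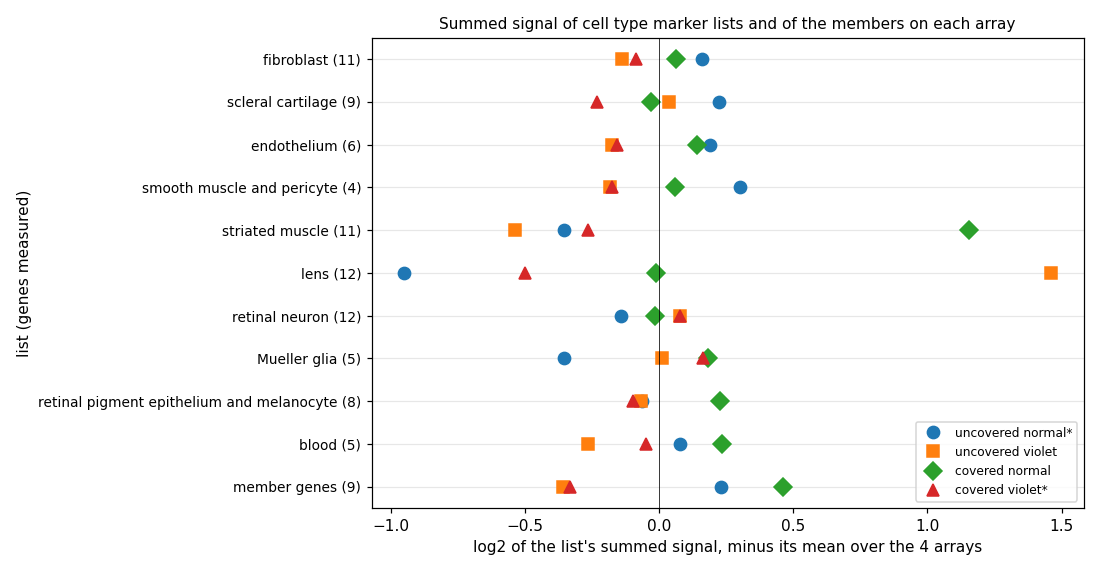
Log2 of the summed signal of each marker list, minus its mean over the 4 arrays (horizontal axis), for 10 cell type lists and the members (vertical axis, with the number of genes measured); each symbol is 1 pool by the scanner labels. Bright genes weigh most in a sum. By sum, the 2 normal-light pools lie above the 2 violet-light pools for the members and the fibroblast, endothelial, smooth muscle, blood and pigment lists. For pigment the gap is very small in uncovered eyes. Among the members, OGN, POSTN, TNC and KERA do not have this order by the probe that stands for each. The striated muscle sum has the covered normal-light pool apart.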

How the data were processed

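Agilent Feature Extraction 11.5.1.1 read the scans in 1 colour, per the file headers. The deposited scanner files hold an intensity for each spot after that program's background subtraction and detrending, without scaling across arrays. Marks of 0 or 1 for background, outliers and saturation are deposited beside it as another kind of value. The authors' value table holds linear intensity with column medians of 218.39, 218.57, 218.35 and 218.67. How the authors normalized it is unstated. Compared with the scanner values it is linear, uncentred and of the same direction.

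Of 43803 spots that are not controls, repeats were averaged on the log2 scale to 43603 probes, and 26 with an outlier mark were left out. No probe was saturated. Of 11711 probes with 1 gene symbol (0 with several, 31892 with none), 10418 passed, for 4807 genes. The 75th percentile of processed signal was 2108, 1325, 797.5 and 883 for uncovered normal, uncovered violet, covered normal and covered violet light, and 83.07% to 85.97% of probes were well above background. The files name an older chicken build than the gene table, so no coordinates are given. R 4.3.3, limma 3.58.1 and Python 3.11.15 were used.

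A bound ("at least") sets the bright array against the higher of the dim array's own value and its lowest signal among probes well above background. It is nominal, because a probe not well above background can read above that lowest signal. An FBLN1 probe did so in the uncovered violet-light pool. Genes were named by rule: all members, the 3 widest-ranging genes of each related list and any at least 2-fold apart, and the nearest genes by profile, of which 1 is not reported here. The members and lists were chosen with earlier results of these data known. Alternatives were quantile, cyclic loess and median scaling, normexp correction, no filter, the mean of probes, the authors' table and its labels. The mean signal planned for normexp is not a column of these files, so the median signal was used. An offset of 50 was added in that correction, which pulls dim signals together on the log2 scale before scaling. For LUM, OGN and POSTN, the effect of the offset and that of the background correction were not separated.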

Additional observations from a re-analysis of the deposited data

Results flagged for a closer look

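For 3 genes the goggle difference had opposite signs in the 2 lights by the scanner labels. LUM was at 0.24 under normal and -0.14 under violet light, FMOD at -0.41 and 0.09, and SPARC at 0.38 and -0.20. These signs rest on 1 probe per gene and on the setting. The second FMOD probe gave -0.72 and -0.33, 1 SPARC probe gave 0.84 and 0.05, and LUM gave -0.18 and -0.25 with quantile scaling. The light difference of TNC was 1.05 in uncovered and -0.90 in covered eyes. None of these differences between groups was tested, since each group is 1 array.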

How the results depend on the processing

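No paired analysis was possible because each group is 1 array. Leaving out a replicate or blocking on the slide could not be done, since each group is 1 array and all arrays share a slide. A value with no replicate was counted as moved where it changed by more than the SD between probes of one gene (0.15 to 0.47 by pair of arrays). Under quantile, cyclic loess and median scaling and without the filter on dim probes, no median moved past that SD and no count by over 1.5 times. However, the 2-fold call of TNC for light in uncovered eyes was lost with each of the 3 scalings (count 2 in place of 3). Median scaling put the median of all genes at -0.30 for goggles under normal light and at -0.18 for light in uncovered eyes. The undisputed pair kept a median of 0.64 to 0.79 and 3 to 4 genes at 2-fold under every setting. The count at 2-fold for light in uncovered eyes was 3, but 1 after normexp correction, 1 when probes were averaged, 0 in the authors' table and 0 with the table's labels. For light in covered eyes it was 4, but 2 after normexp correction. For goggles under violet light it was 0, but 2 in the authors' table and 3 with the table's labels. The medians moved in the authors' table and with its labels, to 0.97 and 0.95 for goggles under normal light, 0.55 and 0.40 for goggles under violet light and -0.24 and -0.38 for light in covered eyes. Reversed in the authors' table were, for light in uncovered eyes, DCN (0.46), LUM (0.25) and TNC (-0.78), and in covered eyes DCN (0.43) and LUM (0.17). With the table's labels, DCN (0.42), LUM (0.14) and TNC (-0.82) reversed in uncovered eyes, as did DCN (0.47) in covered eyes. The label exchange alone gave these reversals except that of LUM in covered eyes, where it gave -0.24. The cause of that one and of the other moves was not tested. Dim probes limit what POSTN, LUM and OGN can show, since 7 of their 10 probes were not well above background on at least 1 array.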
